A study of Mus musculus with 4 samples.

Results

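The genes described here are the cyclin-dependent kinase inhibitors Cdkn1a, Cdkn1b, Cdkn1c, Cdkn2a, Cdkn2b, Cdkn2c and Cdkn2d and the D cyclins Ccnd1, Ccnd2 and Ccnd3, measured in mouse bone marrow cells with and without deletion of Ncstn. Members were found by gene symbol in the probe set annotation, which gave all 10 genes of the 18193 genes on the array and 22 of its 45037 probe sets that are not controls. A probe set is a group of short probes read as one value. The brightest probe set, by its mean over the 4 arrays, stood for its gene, and the others are given beside it. The choice did not use any difference between the groups.

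The cells were lineage-negative, cKit-positive, Sca1-positive (LSK) bone marrow cells, a sorted fraction in which blood stem cells and multipotent progenitors are found. WT mice carried Ncstn flox/flox without cre, and Ncstn KO mice, their littermates, carried Ncstn flox/flox Mx1-cre+. All mice had 3 injections of polyIC (20 µg for each g of body weight) from 14 days of age, and cells were taken 4 weeks afterwards, at 6 weeks of age. The Mx1 promoter answers to interferon, which polyIC induces, in many cell types besides blood cells. Cre was present in the Ncstn KO group only, so its own effect and that of the deletion cannot be told apart. Each group held 2 mice, 1 female and 1 male. WT replicate 1 and Ncstn KO replicate 2 were male, and WT replicate 2 and Ncstn KO replicate 1 were female.

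A cell commits to division when D cyclins bind the kinases Cdk4 and Cdk6 and the complex phosphorylates the retinoblastoma protein, which then releases the E2f transcription factors. Ink4 inhibitors (Cdkn2a to Cdkn2d) bind Cdk4 and Cdk6 and keep D cyclins from activating them. Cip/Kip inhibitors (Cdkn1a to Cdkn1c) bind whole cyclin-kinase complexes and block those of Cdk2 above all. In blood stem cells these inhibitors are known for holding cells out of the cycle or slowing their entry, and D cyclins are known to respond to cytokine and Notch signals. Many of these proteins are also controlled by their turnover, which an RNA measurement does not see.

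All values are log2 of the deposited intensity, and a change is the Ncstn KO mean minus the WT mean with the standard error (SE) and 95% interval of a limma fit over all genes. A call means an adjusted p under 0.05. Ncstn, the targeted gene, read 9.05 and 8.98 on its brighter probe set in the WT mice (replicates 1 and 2) against 7.58 and 7.91 in the Ncstn KO mice, a change of -1.27 (SE 0.22) that did not pass (limma adjusted p = 0.257). Its dimmer probe set read 6.81 and 6.79 in WT and 5.86 and 7.09 in Ncstn KO, so that its arrays overlapped. Median intensities over the arrays ran from 71.6 to 79.2, and the 18 hybridization control probe sets, which read RNA added at a fixed amount, had means above WT in 18 of 18 cases, by 0.195 on average. The LSK marker genes measured (8 of 10 listed, Kit, Cd34 and Flt3 among them) had array means of 11.5 to 11.8, while the lineage markers measured (6 of 9 listed) had array means of 5.98 to 6.65. These means hide changes of single genes. Of the 6 lineage markers 2 were above and 4 below WT, from -2.12 for Ms4a1 to 1.07 for Itgam. The 8 LSK markers ran from -0.18 to 0.83, the highest being Slamf1. Arrays did not overlap for 5 of the 6 and 3 of the 8, against 34.0% of all genes. Precision is limited by the small number of arrays, and with 2 mice against 2 the smallest p that an exact two-sided permutation test could reach for 1 gene is 0.333. In bulk RNA a smaller share of cells with a transcript and less of it per cell cannot be told apart.

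No inhibitor or D cyclin passed the test between Ncstn KO and WT. The limma fit called 0 of the 10 genes, against a background of 0% (0 of 18193 genes), and 0 of the 10 had an unadjusted p under 0.05, against 6.80% (1237) of all genes. Of the 10 members 5 had means above and 5 below WT, where 55.8% of all genes had means above it. Both Ncstn KO arrays lay outside the WT pair for 5 of the 10, where 34.0% of all genes had arrays that did not overlap. They lay above it for Cdkn1c and Cdkn2d (21.3% of all genes) and below it for Cdkn1b, Cdkn2c and Ccnd2 (12.8%). The median change of the members was -0.032 and that of all genes 0.025. The widest changes among the brightest probe sets were 0.58 for Cdkn1c and -0.45 for Cdkn2c, and 0 of the 10 reached 2-fold with separate arrays, where 1.71% of all genes did.

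**Figure D1:**
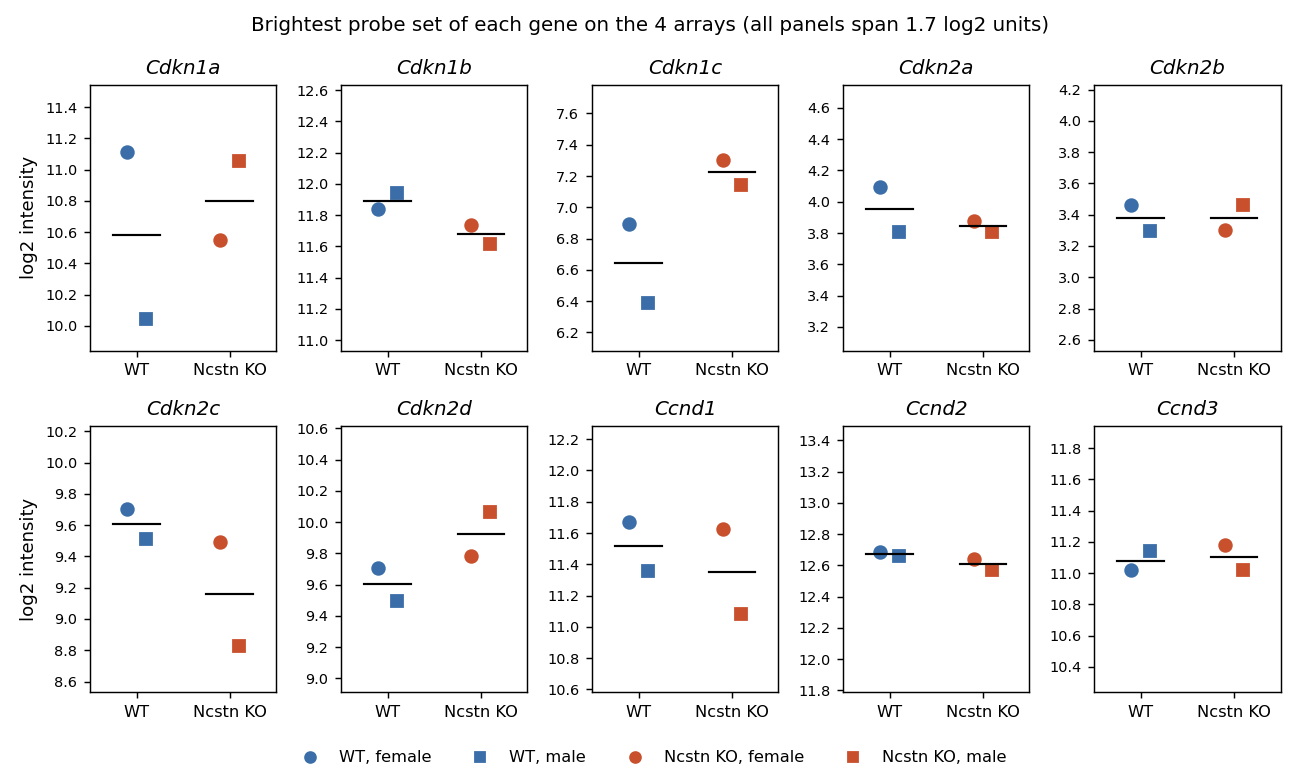
Log2 intensity of the brightest probe set of each gene (vertical axis) on the WT (blue) and Ncstn KO (orange) arrays, with circles for females, squares for males and a black line at each group mean. All panels span the same range of log2 units, so distances can be compared between genes while heights cannot. The Cdkn1a arrays cross between the groups, whereas both Ncstn KO arrays lie above WT for Cdkn1c and Cdkn2d.

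Among the Cip/Kip inhibitors, Cdkn1c had the widest change of the 10 genes. Cdkn1c encodes the inhibitor p57, is expressed from the maternal allele and is known for keeping hematopoietic stem cells quiescent. Its only probe set read 6.39 and 6.89 in the WT mice (replicates 1 and 2, an order kept throughout) against 7.30 and 7.14 in the Ncstn KO mice. The mean of 6.93 was below the median level of all genes, 8.04, and was brighter than 55.5% of all probe sets. Both Ncstn KO arrays were above both WT arrays, but the WT arrays lay 0.50 apart, nearly as far as the groups. The change was 0.58 (SE 0.28, 95% interval -0.092 to 1.25), or 1.50-fold, and did not pass (limma adjusted p = 0.798). It was 0.41 in females and 0.75 in males, and without WT replicate 1 it was 0.33.

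Cdkn1b encodes p27, which binds cyclin E and cyclin A complexes of Cdk2 and is lowered by protein turnover when cells enter the cycle. Its brightest probe set read 11.94 and 11.84 in WT and 11.74 and 11.62 in Ncstn KO. The arrays of each group lay within 0.13 of each other, and both Ncstn KO arrays were below both WT arrays. The change was -0.21 (SE 0.098, 95% interval -0.45 to 0.028), the smallest p of the 10 genes, and it did not pass (limma adjusted p = 0.796). A second Cdkn1b probe set gave -0.18, but its arrays overlapped, at 11.49 and 11.23 in WT and 11.04 and 11.33 in Ncstn KO. The estimate of the brightest probe set moved to -0.41 once arrays were put on the scale of the hybridization controls. This scaling lowers the change of every gene by the same 0.195.

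Cdkn1a encodes p21, the inhibitor induced by p53 after DNA damage and by several other signals. It had the widest spread between mice of one group among the 10 genes. Its brightest probe set read 10.05 on WT replicate 1 and 11.12 on WT replicate 2, against 10.55 and 11.06 on Ncstn KO replicates 1 and 2. The WT mice thus lay 1.07 apart and enclosed both Ncstn KO mice. The change of 0.22 (SE 0.36, 95% interval -0.65 to 1.10) did not pass (limma adjusted p = 0.986). The second probe set repeated the pattern at 8.02 and 8.95 in WT and 8.50 and 8.85 in Ncstn KO, with a change of 0.19. By sex the 2 pairs ran in opposite directions, -0.57 in the females and 1.01 in the males, which holds for 44.3% of all genes. The change became 0.76 without WT replicate 2 and -0.31 without WT replicate 1.

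Of 13 other listed targets of p53, 11 were measured, 5 of them above and 6 below WT, with a median of -0.011, and 0 were called. The median was 0.24 without Ncstn KO replicate 2 and -0.030 to -0.0075 without any other array. Plk2, a polo-like kinase gene, had a change of -1.15 (SE 0.42), and its value on Ncstn KO replicate 1 was 9.11 against 10.46 on replicate 2. Pmaip1, which encodes the death-promoting protein Noxa, had a change of 1.13 (SE 0.49). It read 7.55 and 8.51 in WT and 9.79 and 8.53 in Ncstn KO, so Ncstn KO replicate 2 was level with WT replicate 2. Fas, the death receptor gene, had a change of 0.34 (SE 0.28). Mdm2, the p53 feedback gene, ran from 11.52 to 11.75 over the arrays with a change of -0.036 (SE 0.12).

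The Ink4 inhibitors comprised a bright and a dim pair. Cdkn2c and Cdkn2d probe sets were brighter than 75.0% and 78.2% of all probe sets, whereas those of Cdkn2a and Cdkn2b were brighter than only 24.2% and 16.2%. These ranks describe probe sets, whose brightness depends on their probes as well as on the transcript.

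Cdkn2c encodes p18, an Ink4 inhibitor known to limit the self-renewal of hematopoietic stem cells. It read 9.51 and 9.71 in WT and 9.49 and 8.83 in Ncstn KO. Both Ncstn KO arrays were below WT, but Ncstn KO replicate 1 was close under WT replicate 1, and the male Ncstn KO mouse stood apart. The change was -0.45 (SE 0.25, 95% interval -1.07 to 0.17), and it did not pass (limma adjusted p = 0.863). Without Ncstn KO replicate 2 it was -0.12, and without Ncstn KO replicate 1 it was -0.78. DNA replication and mitosis genes had their lowest array mean on the same array, 11.39 on Ncstn KO replicate 2 against 11.67 to 11.71 on the others. Of 24 measured genes of that list 22 had means below WT and 0 were called, where 8041 of all 18193 genes had means below WT. Arrays did not overlap for 5 of the 24, against 34.0% of all genes. The part of this list in the Cdkn2c value was not tested.

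Cdkn2d encodes p19 of the Ink4 group, which in many tissues is found in cells leaving the cycle. Its values were 9.50 and 9.70 in WT and 9.79 and 10.07 in Ncstn KO, so that both Ncstn KO arrays were above WT. The change of 0.32 (SE 0.18, 95% interval -0.11 to 0.76) had the opposite sign to that of Cdkn2c and did not pass (limma adjusted p = 0.848). It was 0.57 in the male and 0.080 in the female pair. Without Ncstn KO replicate 2 it was 0.18 and without Ncstn KO replicate 1 it was 0.46, and scaling to the hybridization controls lowered it to 0.13.

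Cdkn2a and Cdkn2b, which lie next to each other in the genome and are known for being silent in normal blood stem cells, were dim on every array. Cdkn2a read 3.81 and 4.10 in WT and 3.88 and 3.81 in Ncstn KO, a change of -0.11 (SE 0.19). Cdkn2b read 3.30 and 3.46 in WT and 3.30 and 3.46 in Ncstn KO, a change of 0.0020 (SE 0.16). In both genes the groups overlapped. Neither probe set can be said to detect its transcript, because single-probe values were not used here. Cdkn2a is of interest because it has 2 starts 12427 bases apart, of which the upstream serves the Arf protein and the downstream the p16 inhibitor, while the array has 1 probe set for the gene.

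The windows around both starts are shown to give the sequence in which the transcripts begin, from RefSeq on GRCm38.p6, 250 bases before to 50 after each start and on the minus strand (chr4:89294570-89294869 and chr4:89282143-89282442). Capitals mark matches to an E2f site (TTTCCCGC, TTTCGCGC, TTTGCCGC or TTTGGCGC), an Rbpj site (GTGGGAA), a forkhead site (GTAAACA), an E-box (CACGTG) and a GC box (GGGCGG), each searched on both strands.
Cdkn2a start 1: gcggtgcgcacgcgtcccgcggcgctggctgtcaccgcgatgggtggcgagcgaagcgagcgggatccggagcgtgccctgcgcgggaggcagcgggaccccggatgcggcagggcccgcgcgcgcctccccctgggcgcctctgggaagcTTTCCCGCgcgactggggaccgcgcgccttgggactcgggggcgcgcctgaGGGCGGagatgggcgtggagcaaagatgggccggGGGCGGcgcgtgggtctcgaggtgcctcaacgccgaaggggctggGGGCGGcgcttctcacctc
Cdkn2a start 2: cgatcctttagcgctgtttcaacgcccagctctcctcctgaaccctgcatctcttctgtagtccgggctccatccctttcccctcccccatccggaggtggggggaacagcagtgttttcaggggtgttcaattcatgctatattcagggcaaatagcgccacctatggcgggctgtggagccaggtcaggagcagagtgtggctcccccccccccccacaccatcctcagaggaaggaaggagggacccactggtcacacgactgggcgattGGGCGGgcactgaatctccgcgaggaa
The upstream window holds 1 E2f match (TTTCCCGC) and 3 GC boxes. Any of the listed E2f words occurs in 2.26% of 32851 RefSeq windows. GC content was 77.0% in the upstream and 60.3% in the downstream window, against a median of 52.7%, and shares at like GC content were not computed. The downstream window holds 1 GC box and none of the other motifs. GC boxes occur in 35.7% of all windows, so they do not set these starts apart, and a match is no sign of binding.

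The D cyclins were bright, their best probe sets exceeding 89.4% to 98.1% of all probe sets. Ccnd2, which carries D cyclin function in many blood cells and is induced by cytokines, is described first by its brightest probe set. This read 12.66 and 12.69 in WT and 12.64 and 12.57 in Ncstn KO. Both Ncstn KO arrays were below WT by a narrow margin, and the change of -0.066 (SE 0.071, 95% interval -0.24 to 0.11) did not pass (limma adjusted p = 0.97). The 6 other Ccnd2 probe sets had changes from -0.22 to 0.12, all with overlapping arrays, and WT arrays 0.17 to 0.36 apart. Without 1 array the change of the brightest ran from -0.10 to -0.031. Its 95% interval is unadjusted and comes from 1 probe set, so it does not bound the change of the gene. In the fit over all probe sets the other Ccnd2 probe sets had wider intervals, the widest -0.80 to 0.35 for 1416124_at. The change of the brightest moved to -0.26 under the scaling to the hybridization controls.

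Ccnd1, a D cyclin gene that answers to growth factors and in some tissues to Notch, had 3 probe sets that ran alike. The brightest read 11.36 and 11.67 in WT and 11.63 and 11.08 in Ncstn KO. The female Ncstn KO mouse was level with the female WT mouse, and the male Ncstn KO mouse was the lowest. The change was -0.16 (SE 0.20, 95% interval -0.66 to 0.34) and did not pass (limma adjusted p = 0.976). The dimmer probe sets gave -0.24 and -0.40. Without Ncstn KO replicate 2, which also had the lowest mean of the replication and mitosis genes, the change was 0.11, and without Ncstn KO replicate 1 it was -0.43.

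Sex separated the arrays of Ccnd1 better than genotype did. On all 3 Ccnd1 probe sets both females were above both males, as they were on 5 of the 7 Ccnd2 probe sets. Probe sets of 1 gene read the same mice, so they are not separate evidence. Among the brightest probe sets this held for 2 of the 10 genes, Ccnd1 and Cdkn2a. Over all genes 40.5% had sexes that did not overlap in either direction, and the share with females above was not counted. Ncstn and the other cycle, p53 and regulator genes named here were looked at in the same way. Both females were above both males for Cdk4, Cdk2, Rbl1, E2f1, Ccne1, Skp2, Mcm6 and Fas, and below them for Mdm2. The rest of these genes, with Cdk6, Rb1, Ccne2 and Mki67 among them, had sexes that overlapped. On the dimmer Cdkn1b probe set, 1434045_at, both females were below both males. With genotype in the model the female minus male difference of Ccnd1 was 0.43, from means of 11.65 and 11.22. This missed the threshold (limma adjusted p = 0.574), which 4 genes (0.0220%) passed. The Ccnd2 probe sets had female minus male differences of 0.050 to 0.43. With 1 mouse of each sex in a group, sex and other differences between these mice cannot be told apart.

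**Figure D2:**
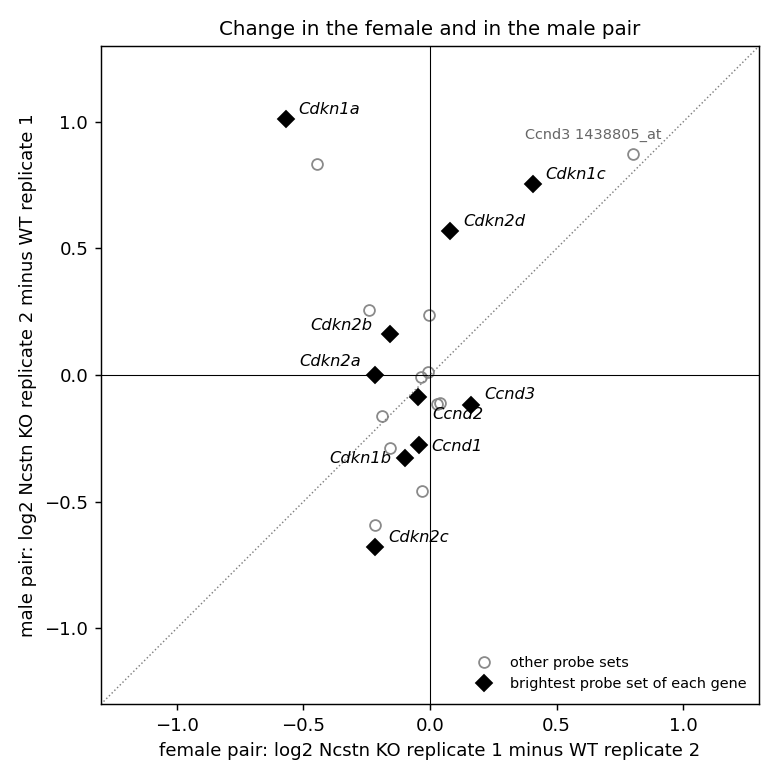
Change from WT to Ncstn KO in log2 units within the female pair (horizontal axis) and the male pair (vertical axis), with black diamonds for the brightest probe set of each gene, open circles for the other 12 probe sets and a dotted line where both pairs would be equal. Cdkn1a stands in the upper left, at -0.57 and 1.01, while Cdkn1c and the Ccnd3 probe set 1438805_at are above 0 in both pairs.

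Ccnd3, the D cyclin gene known for its role in lymphocyte and erythroid precursors and as a Notch-responsive gene in thymocytes, gave different answers on different probe sets. The brightest, 1415907_at, read 11.14 and 11.02 in WT and 11.18 and 11.02 in Ncstn KO. Its groups overlapped, with a change of 0.023 (SE 0.12, 95% interval -0.27 to 0.32, limma adjusted p = 0.9996). The second, 1438805_at, read 9.17 and 9.08 in WT and 9.88 and 10.04 in Ncstn KO. Here both Ncstn KO mice stood well above both WT mice, and the distance between the groups was over 5 times that between mice of a group.

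The change of 1438805_at was 0.84 (SE 0.17, 95% interval 0.41 to 1.27), or 1.79-fold, and was the largest among the 22 probe sets. It was the only one of the 22 with an unadjusted p under 0.05, where 5.14% of all probe sets had one. It did not pass over all 45037 probe sets (limma adjusted p = 0.751), nor over all genes where it took the place of the brightest (limma adjusted p = 0.309). It was 0.80 in females, 0.87 in males, and 0.64 under the scaling to the hybridization controls. The third probe set, 1444323_at, was dim, at 5.47 and 5.63 in WT and 5.39 and 5.73 in Ncstn KO, a change of 0.0083. Among 5171 genes with at least 2 probe sets above the median level, the changes of a gene's probe sets spanned a median of 0.19, and 4.00% of genes spanned as much as the 0.81 of Ccnd3. The brightest probe set is annotated through a RefSeq mRNA and the other 2 through GenBank records. The sources used here do not say which exons they read.

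**Figure D3:**
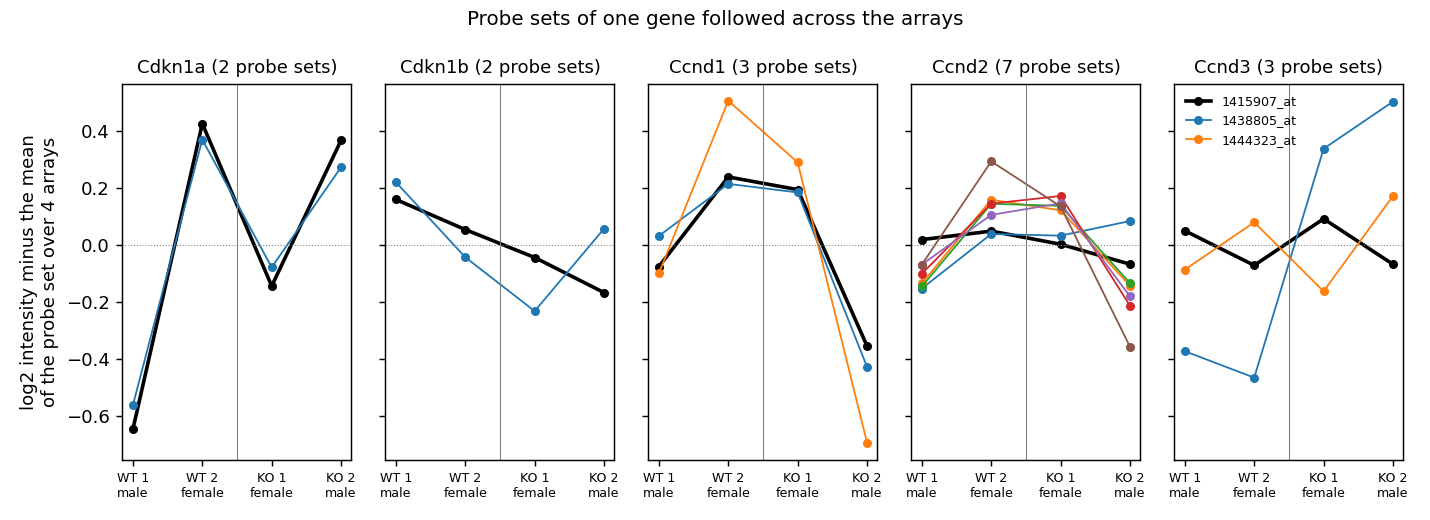
Log2 intensity of each probe set minus its mean over the 4 arrays (vertical axis), for the 5 genes with more than 1 probe set; the thick black line is the brightest probe set and lines join values of one probe set, not a course in time. The probe sets of Cdkn1a and of Ccnd1 run together, whereas 1438805_at of Ccnd3 is above its mean on both Ncstn KO arrays and below it on both WT arrays, unlike the other Ccnd3 probe sets.

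Ccnd3 has 2 starts in the RefSeq table, 88416 bases apart on the plus strand of GRCm38.p6, and both windows are shown because its probe sets disagree (chr17:47504801-47505100 and chr17:47593217-47593516, capitals as above).
Ccnd3 start 1: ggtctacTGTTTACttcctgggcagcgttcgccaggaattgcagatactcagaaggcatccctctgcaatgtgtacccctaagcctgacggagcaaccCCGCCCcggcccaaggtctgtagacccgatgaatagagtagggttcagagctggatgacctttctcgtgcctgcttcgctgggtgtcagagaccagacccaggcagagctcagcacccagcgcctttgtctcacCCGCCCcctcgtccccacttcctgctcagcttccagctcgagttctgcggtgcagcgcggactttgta
Ccnd3 start 2: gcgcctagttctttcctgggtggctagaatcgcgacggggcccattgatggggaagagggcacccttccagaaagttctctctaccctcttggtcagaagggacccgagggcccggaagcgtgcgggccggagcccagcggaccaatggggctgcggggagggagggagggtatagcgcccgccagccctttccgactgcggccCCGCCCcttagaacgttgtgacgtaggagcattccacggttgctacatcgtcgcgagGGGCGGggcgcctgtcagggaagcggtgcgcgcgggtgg
The upstream window has a GC content of 59.3%, the downstream window one of 67.0%, and the median of all windows was 52.7%. Each holds 2 GC boxes. The upstream window also holds 1 forkhead match on the opposite strand (TGTTTAC), a motif found in 3.65% of windows, and neither holds the Rbpj, E2f or E-box letters. Whether any of the 3 probe sets tells transcripts of the 2 starts apart is not known here.

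**Figure D4:**
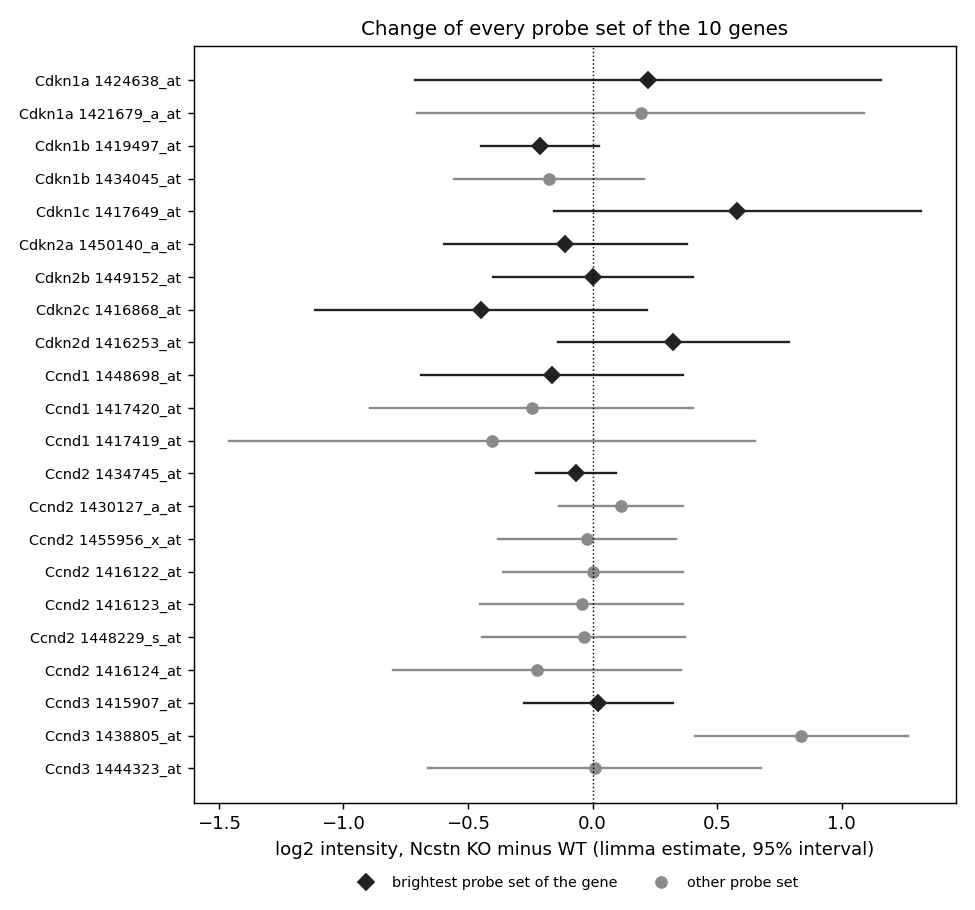
Change from WT to Ncstn KO in log2 units (horizontal axis) with its 95% interval for all 22 probe sets of the 10 genes, from a limma fit over all 45037 probe sets; diamonds are the brightest probe set of each gene and circles the others. Of the 22 intervals, that of 1438805_at (0.41 to 1.27) is the only one that leaves out 0; the intervals are not adjusted for the number of probe sets.

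Over all 22 probe sets, 10 had means above and 12 below WT (52.0% of all probe sets were above), and arrays did not overlap for 6, against 32.5% of all probe sets. The 6 were those of Cdkn1b, Cdkn1c, Cdkn2c, Cdkn2d and Ccnd2 named above and 1438805_at of Ccnd3.

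The kinases that these genes act on had small changes. Cdk4 had a change of -0.085 (SE 0.077), Cdk6 of 0.068 (SE 0.069) and Cdk2 of 0.028 (SE 0.15). In the list of kinases, later cyclins and activators 14 of 14 genes were measured, with 4 above and 10 below WT, a median of -0.035 and 0 called. The median was -0.16 without Ncstn KO replicate 1 and 0.055 without Ncstn KO replicate 2. The cyclin E genes, which act with Cdk2 after the D cyclins, had changes of 0.15 (SE 0.36) for Ccne1 and -0.41 (SE 0.25) for Ccne2, and Cdk7, of the kinase that activates other Cdks, one of 0.17 (SE 0.12).

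The retinoblastoma family and E2f genes downstream of the D cyclins were split between the directions. Of 18 measured members 9 were above and 9 below WT, with a median of 0.0015 and 0 called. The median was -0.17 without Ncstn KO replicate 1 and 0.088 without Ncstn KO replicate 2. Rb1 had a change of -0.10 (SE 0.14), Rbl1 of -0.12 (SE 0.14), E2f1 of -0.26 (SE 0.19) and E2f3 of -0.13 (SE 0.10). Rbl2, whose product p130 represses cycle genes in resting cells, read 9.54 and 9.68 in WT and 9.94 and 9.95 in Ncstn KO. Its change of 0.34 (SE 0.15) did not pass (limma adjusted p = 0.788).

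Genes that control the transcription or turnover of the inhibitors and D cyclins lay on both sides of WT. Of 20 listed, 19 were measured, 12 of them above and 7 below WT, with changes from -0.29 to 0.47, a median of 0.023 (-0.025 without WT replicate 2) and 0 called. Arrays did not overlap for 7 of the 19, with 5 above and 2 below WT, against 34.0% of all genes. Gfi1, a repressor known to restrain stem cell proliferation, had a change of 0.47 (SE 0.20), and Myc, which represses several of the inhibitors, one of 0.18 (SE 0.094). The Polycomb genes Ezh2 and Bmi1, which silence Cdkn2a, had changes of -0.19 (SE 0.085) and 0.13 (SE 0.099). Skp2, the ubiquitin ligase subunit that marks p27 for destruction, had one of -0.12 (SE 0.34). None of these passed.

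In the list of DNA replication and mitosis genes the median change was -0.10. The number of cycling cells was not measured. Changes were -0.055 (SE 0.078) for Mki67, -0.81 (SE 0.39) for Tyms, -0.17 (SE 0.097) for Mcm5 and -0.14 (SE 0.087) for Mcm6. Tyms read 8.04 and 8.52 in WT and 7.99 and 6.94 in Ncstn KO, so Ncstn KO replicate 1 was close under WT replicate 1. The list's median was 0.0013 in females and -0.22 in males. It was -0.0074 without Ncstn KO replicate 2 and -0.24 without Ncstn KO replicate 1.

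On the same arrays, 4 of the 7 marker lists of more mature blood cells had their Ncstn KO array means above those of WT, and 2 had them below. Granulocyte-macrophage progenitor markers (8 measured of 9) had array means of 11.56 and 11.68 in WT and 12.31 and 12.27 in Ncstn KO. All 8 had means above WT, where 55.8% of all genes did. The ranges of array means for basophil and mast cell markers (6 of 7 measured, all 6 above) were 8.85 to 8.87 in WT and 9.90 to 10.16 in Ncstn KO. Those for megakaryocyte-erythroid progenitor markers (10 of 10, all above) were 8.31 to 8.41 and 8.91 to 9.36. In that list Gata1 and Klf1 had overlapping arrays and changes of 0.27 and 0.16. For both genes Ncstn KO replicate 2 was below both WT arrays. Mature neutrophil and monocyte markers (12 of 12, all above) ran from 10.44 to 10.85 in WT and from 11.24 to 11.50 in Ncstn KO. Arrays did not overlap for 6 of these 12, where 34.0% of all genes had such arrays. These were Cd14, Ccr2, F13a1, Hp, Cxcr2 and Mmp8, with changes of 0.90 to 1.64. S100a8, S100a9, Ltf, Camp, Ngp and Lcn2 had overlapping arrays and changes of 0.010 to 0.44. Early lymphoid markers (8 of 8, with 6 below) ran from 9.35 to 9.57 in WT and from 8.35 to 9.61 in Ncstn KO. Mature erythroid markers (6 of 8 measured, 3 below and 3 above) had array means of 6.95 to 7.13 and 6.25 to 6.71, and T and NK cell markers (5 of 7 measured, 4 below) of 7.44 to 7.66 and 6.63 to 7.24. Arrays did not overlap for 7 of 8 granulocyte-macrophage progenitor, 6 of 6 basophil and mast cell and 8 of 10 megakaryocyte-erythroid progenitor markers. The same held for 4 of 8 early lymphoid, 3 of 6 mature erythroid and 2 of 5 T and NK cell markers. No marker was called. The part of these cells in the values of Cdkn1c, Cdkn2d and Ccnd3 was not tested.

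**Figure D5:**
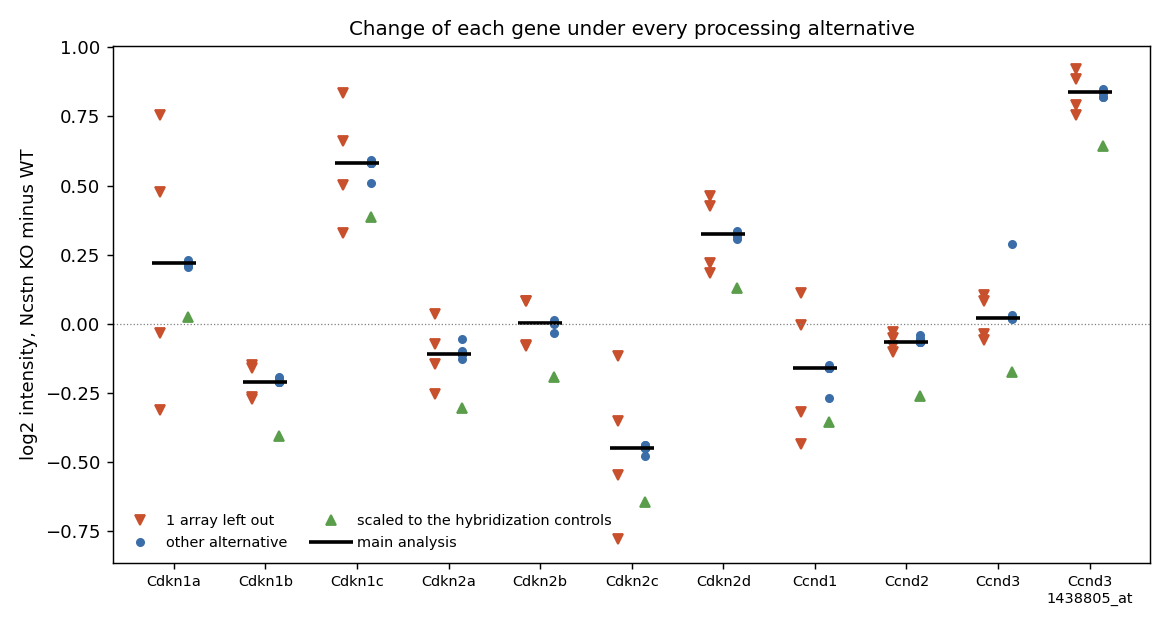
Change from WT to Ncstn KO in log2 units (vertical axis) for each gene and for the Ccnd3 probe set 1438805_at, with a black bar for the main analysis, orange triangles for fits that leave out 1 array, a green triangle for arrays scaled to the hybridization controls and blue points for the other alternatives. Cdkn1c, Cdkn2d and 1438805_at stay above 0 and Cdkn1b, Cdkn2c and Ccnd2 below 0 in all alternatives run, whereas Cdkn1a runs from -0.31 to 0.76. Where the arrays of the groups do not overlap, as for all of these but Cdkn1a, leaving out 1 array could not turn the sign.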

How the data were processed

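RNA of sorted LSK cells from 4 mice was hybridized to Affymetrix arrays after amplification of 5 ng of total RNA per the labels' protocols, a step that can add noise for rare transcripts. Intensities were deposited per probe set on a linear scale (3.32 to 23642.56) and come from RMA, per the submitters' processing notes, with software and version not given in the sources used here. Of 45101 probe sets, 64 controls were left out; 34945 named 1 gene, 932 several and 9160 were unnamed here, per an annotation dated 2016. Entrez identifiers matched 34741 to RefSeq, which changed 0 symbols. Log2 was taken, and limma 3.58.1 in R 4.3.3 (lmFit, eBayes with a variance trend, genotype as the only term, two-sided, Benjamini-Hochberg over 18193 genes) had 2 residual and a mean of 4.11 prior degrees of freedom. The script was tested on simulated data. Figures used matplotlib 3.10.9.

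The members, gene lists and alternatives were chosen with earlier results of these data known. Named besides the members were Ncstn, direct partners fixed by name and the 3 genes of smallest p in each pathway list; list members not measured are not reported here. The replicate numbers are shared by the groups but are not stated to pair mice, so they were not taken to pair them. Deviations of same-numbered arrays correlated at -0.24 over genes. This cannot test pairing, because same-numbered arrays differ in sex.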

Additional observations from a re-analysis of the deposited data

Results flagged for a closer look

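In 3 genes the female and the male pair ran in opposite directions. For Cdkn1a the change was -0.57 in females and 1.01 in males, for Cdkn2b -0.16 and 0.16, and for Ccnd3, on its brightest probe set, 0.16 and -0.12. With 1 mouse per sex and genotype the difference between the sexes was not tested, and 44.3% of all genes had pairs of opposite sign. The hybridization controls, which are outside the gene measurements, had a mean log2 difference of 0.195 from WT to Ncstn KO, with 18 of 18 probe sets above WT.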

How the results depend on the processing

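No member was called under any of the alternatives run on all 4 arrays. The changes of Cdkn1b, Cdkn1c, Cdkn2c, Cdkn2d and Ccnd2 kept their sign in all alternatives that gave a value. Both Ncstn KO arrays of each of these genes lay on one side of WT, so no fit without 1 array could turn the sign. The number of genes called was 0 in the main analysis, 3 after a repeated quantile normalization, 62 with each array centred on its median, 2 among genes above the median level, and 0 to 27 without 1 array. Centring on the median left 3 members with arrays that did not overlap. Scaling to the hybridization controls lowered the change of every gene by the same 0.195, so its shifts are not particular to any gene. It moved the median change of the members to -0.23 and that of all genes to -0.17. The medians of the 5 pathway lists came to -0.30 to -0.17, and 3 members were left above WT. It turned Cdkn2b to -0.19 and Ccnd3 to -0.17. Cdkn2b was -0.035 after quantile normalization. Without 1 array the members' median ran from -0.12 to 0.015, the members above WT from 3 to 5 and those not overlapping, with fewer arrays to overlap, from 6 to 9. Signs turned there for Cdkn1a (-0.31 to 0.76), Cdkn2a (-0.25 to 0.035), Cdkn2b (-0.079 to 0.083), Ccnd1 (-0.43 to 0.11) and Ccnd3 (-0.057 to 0.10), while 1438805_at ran from 0.76 to 0.92. The lone array of a group was assumed to vary like the other group, and the cause of these shifts was not tested. The replicate block called 0 genes. It could not move any change, because each replicate number, like each sex, holds 1 array of each group. Crossing the replicate numbers is the same as adding sex as a term, which called 0 genes too. With only genes above the median level, Cdkn1c, Cdkn2a and Cdkn2b gave no value. Signal over background was not assessed, which limits the dim genes Cdkn2a and Cdkn2b most.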
